A study of Mus musculus with 12 samples.

Results

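The genes of DNA synthesis, repair and nucleotide supply described here are 44 of the 23337 gene symbols counted in mouse oesophageal epithelium. They are genes of the replication fork, of chromatin in S phase, of nucleotide supply and of the G1/S transition, with origin licensing left out. The list was drawn up by function, with earlier results of these data known. All 44 were found in the count files and all 44 passed the filter on low counts, which 14134 genes passed in all. Messenger RNA was sequenced from the epithelium of C57BL/6 mice aged 6 weeks, after it had been pulled off the stroma, with 3 libraries in each of 4 genotype groups. Control mice carried ROSA26-StopFL-Ikk2ca+/L, a constitutively active IKKβ behind a stop cassette, together with Stat3L/L, a floxed Stat3, with no Cre in their label. The active IKKβ group (Ikkβca in the labels) carried ED/L2-Cre+ with ROSA26-StopFL-Ikk2ca+/L. Mice of the Stat3 loss group (Stat3KO) carried ED/L2-Cre+ with Stat3L/L, and the combined group carried ED/L2-Cre+ with both alleles. The ED/L2 promoter, of viral origin, directs Cre to oesophageal epithelial cells, so other cells in a sample keep their Stat3. Every group other than Control carries Cre, so in comparisons with Control genotype and Cre cannot be told apart. Both sides carry it where the combined group is set against a single change. The labels give the active IKKβ group no floxed Stat3 allele. Nothing in them ties the 3 libraries of each group to different animals, and p-values here measure only how far these libraries spread.

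Before a cell divides it copies its genome once, in S phase. At each fork CDC45 and the GINS complex switch on the MCM helicase, primase and DNA polymerase α start the strands, and polymerases δ and ε extend them on the sliding clamp PCNA. Nucleotide enzymes feed this synthesis, histone and DNA methylation factors rebuild chromatin behind it, and repair enzymes remove uracil, mismatches and breaks. Cyclin E and the E2F factors switch these genes on together late in G1. In the stratified epithelium of the oesophagus such cells lie in the basal layer, and cells that move into the suprabasal layers stop dividing. STAT3, which IL-6 and related cytokines switch on, and IKKβ, the kinase that activates NF-κB, are both known as drivers of epithelial proliferation.

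Library totals were 14.8 to 30.2 M counts. Stat3 itself was at 157 to 179 CPM in Control mice (read counts scaled to a common library size with TMM factors), 158 to 239 under active IKKβ, 139 to 154 after Stat3 loss and 154 to 194 in combined libraries. Counts summed over a gene cannot show whether floxed exons were missing, so they do not check the labels. Ikbkb, which encodes IKKβ, was at 83.4 to 97.7 CPM in the 6 libraries with the active allele and Cre and at 59.7 to 82.6 in the other 6. Markers of both epithelial layers were abundant in every library, with 18100 to 32800 CPM summed over 11 basal genes and 40800 to 196000 over 10 suprabasal genes. Xist, the RNA of the inactive X chromosome, was at 924 to 1540 CPM in replicate 1 of each group and at 0.366 to 1.46 CPM in replicates 2 and 3. Control replicate 3 stood apart from Control replicates 1 and 2 in these genes: it was the lowest Control library in 42 of 44, and its Krt4 and Krt13, keratins of the suprabasal layers, took 13.9% of counts against 5.22 and 6.22%. By replicate, this share was 5.06, 13.8 and 12.8% under active IKKβ and 6.01, 6.62 and 10.4% after Stat3 loss. In combined libraries it was 11.6, 4.05 and 13.4%. Without Control replicate 3 the Control group holds only libraries at 5.22 and 6.22%, while every other group still holds a library at 10.4% or more. Medians or counts called without Control replicate 3 are given for the comparisons that use it, while counts of groups that do not overlap are given only with it.

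DNA synthesis genes were lower in the groups with Stat3 loss, and 35 of the 44 had their lowest group mean in the combined group. In the averaged comparison every library with Stat3 loss carries Cre, while of those with intact Stat3 only the active IKKβ libraries do. Stat3 loss and Cre are therefore partly confounded in it. Across all 6 libraries with Stat3 loss against the 6 with intact Stat3, averaged over both IKKβ backgrounds, 11 of the 44 fell and none rose (edgeR quasi-likelihood test, Benjamini-Hochberg adjusted p below 0.05), where 0.198% of all 14134 genes were called lower and 0.0637% higher. The 11 were Hells, Dtl, Ung, Exo1, Uhrf1, Timeless, E2f1, Pcna, Slbp, Gins2 and Cdc45. Log2 fold changes of the 44 ran from -1.58 to -0.09 with a median of -0.68, and all 44 were below 0, beside a median of -0.01 and 51.9% below 0 over all genes tested. In 11 the log2 fold change was -1 or lower, as in 3.06% of all genes. At an unadjusted p below 0.05 37 of the 44 were lower (6.81% of all genes). In 14 of them every library with Stat3 loss lay below every library with intact Stat3, as it did in 0.573% of all genes. In bulk tissue fewer cells in S phase and less of each transcript per cell cannot be told apart.

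Which genes crossed the threshold depended on single libraries, while the median changed little. Leaving out 1 library at a time kept the median of the 44 between -0.73 and -0.62. The count of called genes was 0 without active IKKβ replicate 3, Stat3 loss replicate 1, Stat3 loss replicate 2, combined replicate 1 or combined replicate 3. In those fits 0 of all genes were called lower. The count among the 44 was 3 without Control replicate 2 or combined replicate 2, and 5 without Control replicate 1 or active IKKβ replicate 1. It was 6 without active IKKβ replicate 2, 7 without Stat3 loss replicate 3 and 18 without Control replicate 3 (42 of all genes called lower). Over all genes the count called lower ran from 0 to 42 with 1 library left out, and it is not given for each fit. Changes among the 44 are therefore not told apart from changes in calls over all genes. With high or low Xist as a term, an alternative chosen after seeing the data, the count among the 44 was 6 and the median -0.68. In the 8 libraries with low Xist alone it was 0, with a median of -0.63. Averaged log2 CPM differences had a median of -0.75 in the libraries with high Xist, 1 a group and so without a test, and -0.62 in those with low Xist. Scaling by library totals gave 0 with a median of -0.64, and the DESeq2 Wald test called 28 (1.62% of all genes called lower).

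**Figure D1:**
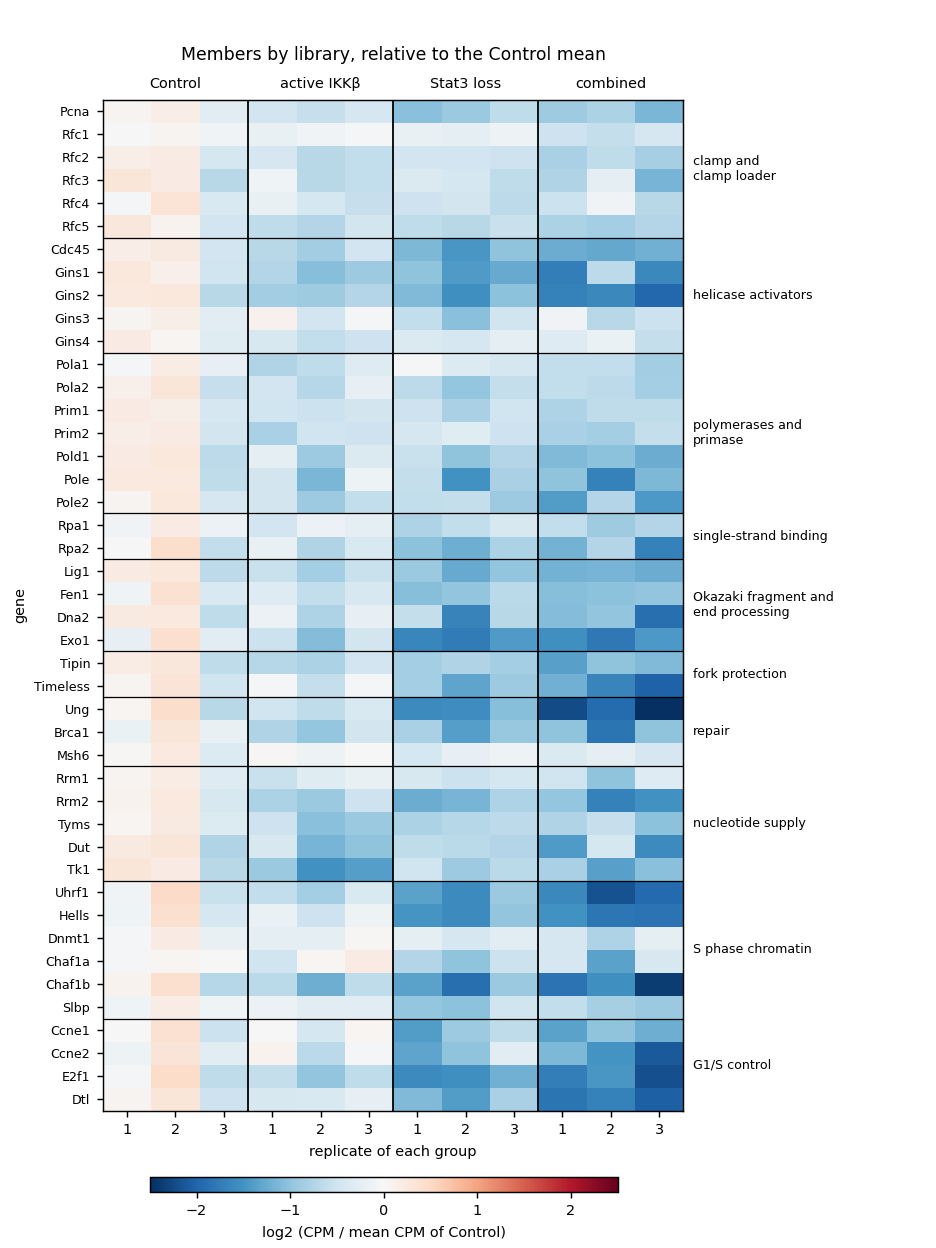
Level of each of the 44 genes (rows, in blocks by role) in each of the 12 libraries (columns, by group and replicate), as log2 of its CPM over the mean CPM of the 3 Control libraries, with lower values in blue and higher values in red. The median of the 44 was 0.10, 0.29 and -0.42 in the Control libraries and -1.08 to -0.93 in the combined libraries, and Control replicate 3 is the bluest Control column.

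Most of these genes had their group means in 1 order. Relative to the Control mean, the median of the 44 was 0.10, 0.29 and -0.42 in Control replicates 1 to 3, -0.43, -0.65 and -0.38 under active IKKβ, -0.76, -0.94 and -0.63 after Stat3 loss and -0.96, -0.93 and -1.08 in combined libraries (log2 CPM differences). All 6 libraries with Stat3 loss were below the 3 Control libraries, combined replicates 1 and 3 were the lowest, and the active IKKβ and Stat3 loss ranges met at their ends. Group means ran from Control through active IKKβ and Stat3 loss down to the combined group in 31 genes, and Control had the highest mean in all 44. Per kilobase of exon, Control levels ranged from 1.03 CPM in Ccne2 to 25.5 CPM in Pcna.

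Some promoters of these genes hold a sequence shared with other S phase genes, and it is shown here because the called genes include some with it and some without. RefSeq windows (GRCm38.p6, the assembly of mm10) of 300 bases, from 250 before to 50 after the start site, were found for 35 of the 44. Searched on both strands for the E2F motif, as TTTCCCGC, TTTGGCGC, TTTCGCGC or TTTGCCGC, 11 of 35 genes (31.4%) held a match, beside 4.38% of the 10016 tested genes with a window and 2.26% of all 32851 windows. Matches of 9 of these genes are printed 5′ to 3′ on the strand of the gene, with the motif or its reverse complement in capitals.
Hells, chr19:38930917-38930946, plus strand: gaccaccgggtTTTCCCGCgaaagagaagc
Dtl, chr1:191575534-191575563, minus strand: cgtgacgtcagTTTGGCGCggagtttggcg
Uhrf1, chr17:56304117-56304146, plus strand: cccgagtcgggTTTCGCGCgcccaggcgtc
Lig1, chr7:13278841-13278870, plus strand: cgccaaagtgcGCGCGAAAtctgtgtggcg
Msh6, chr17:87975054-87975083, plus strand: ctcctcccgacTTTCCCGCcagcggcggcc
Pole2, chr12:69228162-69228191, minus strand: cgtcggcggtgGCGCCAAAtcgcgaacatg
Pola1, chrX:93632275-93632304, minus strand: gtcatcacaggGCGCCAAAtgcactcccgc
Gins3, chr8:95633507-95633536, plus strand: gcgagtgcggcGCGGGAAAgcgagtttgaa
Rfc3, chr5:151651200-151651229, minus strand: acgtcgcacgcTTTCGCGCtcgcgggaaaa

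Dnmt1 and Pold1 hold the others. Among these Hells, Dtl and Uhrf1 fell with Stat3 loss, while the other 8 did not pass and had log2 fold changes of -0.80 (Lig1), -0.70 (Pold1), -0.60 (Pole2), -0.50 (Gins3), -0.35 (Rfc3), -0.31 (Dnmt1), -0.28 (Msh6) and -0.20 (Pola1). The share with a match was 3 of 9 among the genes called with Stat3 loss that have a window, and 7 of 20 among those called neither there nor in the combined group against Control. Uhrf1 has more than one start site in RefSeq. The 250 bases before one of them (chr17:56304063-56304312, plus strand, no annotated exon) hold the E2F match and a pair of CCAAT boxes, all in capitals.
Uhrf1: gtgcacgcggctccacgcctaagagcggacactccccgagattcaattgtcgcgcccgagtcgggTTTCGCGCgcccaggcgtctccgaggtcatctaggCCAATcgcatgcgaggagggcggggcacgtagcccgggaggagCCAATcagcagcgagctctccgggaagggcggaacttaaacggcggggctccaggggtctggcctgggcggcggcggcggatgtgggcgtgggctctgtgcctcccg

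CCAAT, the box bound by NF-Y, was found in 18 of 35 genes (51.4%, beside 42.4% of tested genes). TTTGAA, the core of the CHR element of mitotic promoters, was found in 4 of 35 (11.4%, beside 14.2%). TTCNNNGAA, the STAT motif, was found in the windows of Lig1 and Cdc45 only, 2 of 35 (5.71%, beside 8.36%), and the NF-κB motif in none (beside 6.54%). None of the 13 E2F matches overlapped a match of another motif. These are matches of letters, and a window without one says nothing about a factor that may bind there.

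Replication is organised around the clamp. Pcna (chromosome 2, 132249162 to 132253314, minus strand, mm10, GENCODE M21) encodes the sliding clamp that holds polymerases on DNA, and it was at 63.8, 68.7 and 51.1 CPM in Control mice and 43.8, 41.0 and 46.0 under active IKKβ. It was at 29.8, 32.3 and 39.4 after Stat3 loss and 33.2, 35.4 and 27.8 in combined libraries, so that all 6 libraries with Stat3 loss lay below the 6 with intact Stat3. Averaged over both backgrounds it fell by 0.65 ± 0.10 on the log2 scale (SE, edgeR adjusted p = 0.0351), to 63.8% of its level with intact Stat3. The 5 subunits of replication factor C, which loads the clamp, ran from -0.40 to -0.29 and none passed. Rfc1, the large subunit, was at 77.0, 80.7 and 72.1 CPM in Control mice, 67.5, 71.9 and 74.1 under active IKKβ, 67.6, 64.9 and 70.0 after Stat3 loss and 53.3, 50.4 and 57.2 in combined libraries. Only its combined libraries stood clear of all the others. Rfc3, at 34.8, 32.7 and 17.5 CPM in Control mice, 26.4, 17.4 and 18.5 under active IKKβ, 22, 20.9 and 18.2 after Stat3 loss and 16.7, 24.1 and 12.6 in combined libraries, overlapped between all groups (-0.35 ± 0.21, edgeR adjusted p = 0.512).

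CDC45 and the 4 GINS subunits complete the active helicase, and 2 of these 5 genes fell. Gins2 (chromosome 8, 120578633 to 120589304, minus strand) went from 23.6, 23.8 and 12.3 CPM in Control mice and 10.9, 10.8 and 12 under active IKKβ to 9.28, 6.90 and 9.76 after Stat3 loss and 6.21, 6.50 and 5.13 in combined libraries (-1.06 ± 0.18, edgeR adjusted p = 0.0409). On the opposite strand Gse1 covers 67.3% of its exon length, and strand use in the counting is not given in the sources used here, so reads of the pair cannot be told apart. Cdc45 (chromosome 16, 18780447 to 18811987, minus strand) was at 16.2, 17 and 10.4 CPM in Control mice, 8.99, 7.98 and 10.4 under active IKKβ, 6.67, 5.32 and 7.2 after Stat3 loss and 6.11, 5.98 and 6.28 in combined libraries (-0.88 ± 0.15, edgeR adjusted p = 0.0469). In both genes the libraries with Stat3 loss lay below all others. Gins4 showed the smallest difference of the 44, at 30.9, 27.8 and 21.8 CPM in Control mice, 20.2, 17.5 and 18.6 under active IKKβ, 20.8, 19.9 and 22.6 after Stat3 loss and 21.5, 24.0 and 17.7 in combined libraries (-0.09 ± 0.11, edgeR adjusted p = 0.803). Its active IKKβ libraries lay below Control, and the Stat3 loss and combined libraries overlapped both. Gins1 and Gins3 were at -0.79 and -0.50 and did not pass.

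None of the 7 polymerase and primase genes passed, and all 7 were below 0 with a median of -0.49. Pold1, the catalytic subunit of polymerase δ, was at 59.8, 62.3 and 32.6 CPM in Control mice, 43.9, 27.5 and 40.2 under active IKKβ, 35.2, 25.7 and 31.1 after Stat3 loss and 23.9, 25.4 and 21.9 in combined libraries (-0.70 ± 0.17, edgeR adjusted p = 0.149). The combined libraries were its lowest, and the other groups overlapped. Pola1, the catalytic subunit of polymerase α, was at 27.4, 31.9 and 24.2 CPM in Control mice, 16.6, 17.9 and 22.2 under active IKKβ, 26.9, 22 and 20.5 after Stat3 loss and 18.3, 18.1 and 15.3 in combined libraries (-0.20 ± 0.12, edgeR adjusted p = 0.501). Its active IKKβ and combined libraries all lay below Control, and the Stat3 loss libraries overlapped both Control and active IKKβ. Pole, the catalytic subunit of polymerase ε, was at -0.81 ± 0.24, and the others ran from -0.60 to -0.28. RPA, the complex that coats unwound strands, had 2 measured subunits, and neither passed: Rpa1 was at -0.53 ± 0.10 and Rpa2 at -0.87 ± 0.21. Rpa1 was at 81.0, 99.1 and 78.2 CPM in Control mice, 61.9, 77.9 and 72.8 under active IKKβ, 50.4, 56.3 and 65.4 after Stat3 loss and 56.1, 46.3 and 51.7 in combined libraries. Rpa2 was at 33.8, 45.5 and 21.9 CPM in Control mice, 29.8, 20.1 and 25.8 under active IKKβ, 16.5, 14.5 and 19.4 after Stat3 loss and 14.9, 20.3 and 10.4 in combined libraries. In both, single libraries of the Stat3 loss or combined group reached the range of the active IKKβ group.

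**Figure D2:**
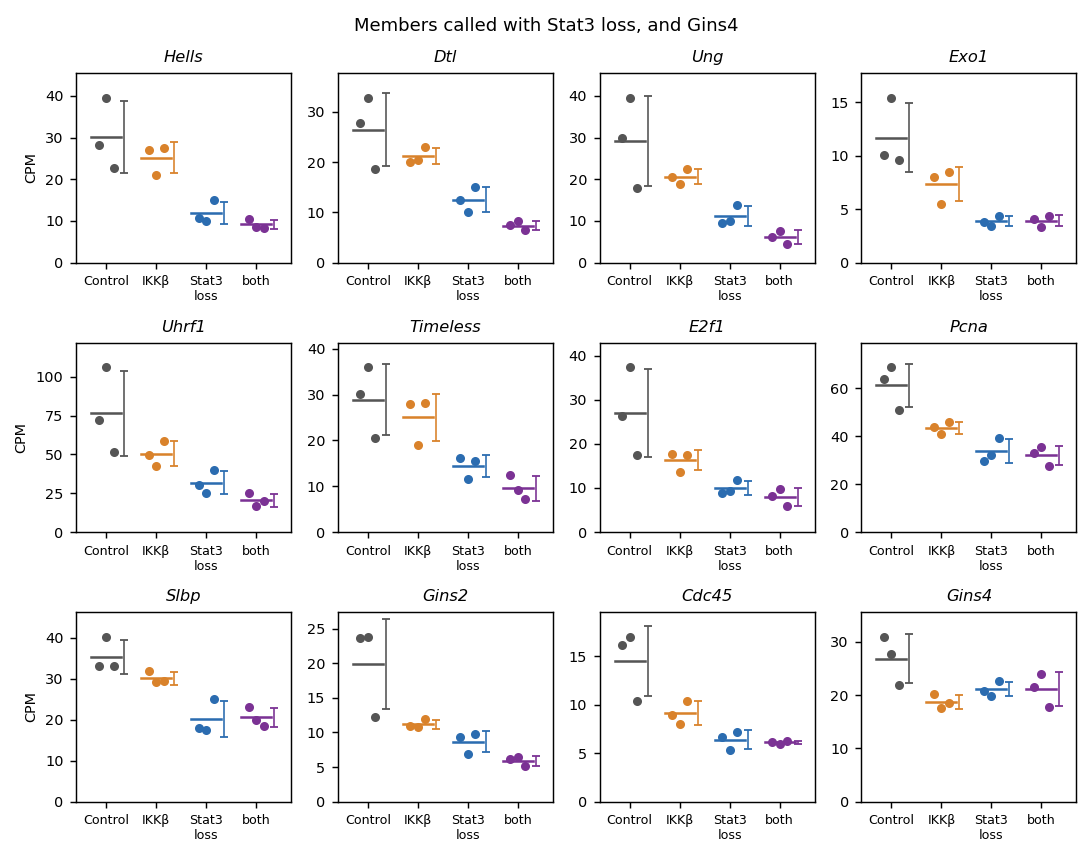
CPM (y axis, from 0) in each library of the 4 groups for the 11 genes called with Stat3 loss and for Gins4, whose difference was the smallest. Points are libraries, horizontal lines group means and brackets ± 1 SD (n = 3), and in all 11 called genes every library with Stat3 loss lies below every library with intact Stat3.

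Lagging strands and DNA ends are finished by nucleases and a ligase, and of these 4 genes 1 fell. Exo1 (chromosome 1, 175880581 to 175913489, plus strand), an exonuclease of mismatch repair and end resection, was at 10.1, 15.4 and 9.6 CPM in Control mice, 8.04, 5.51 and 8.51 under active IKKβ, 3.79, 3.47 and 4.36 after Stat3 loss and 4.05, 3.37 and 4.34 in combined libraries. It fell by 1.25 ± 0.18 (edgeR adjusted p = 0.0238), and its Stat3 loss and combined libraries covered the same range. Fen1, the flap endonuclease, missed the threshold at -0.74 ± 0.13 (edgeR adjusted p = 0.0510), with 36, 50.4 and 29.8 CPM in Control mice, 31.0, 25.2 and 29.5 under active IKKβ, 18.4, 19.5 and 24.4 after Stat3 loss and 18.4, 19.0 and 19.6 in combined libraries. A single gene on the opposite strand, either Gm10143 or Tmem258, covers 78.8% of its exon length. Lig1, the ligase that seals Okazaki fragments, was at 74.9, 77.6 and 41.3 CPM in Control mice, 43.7, 36 and 43.7 under active IKKβ, 33.9, 26.8 and 32.8 after Stat3 loss and 28.6, 28.7 and 27.4 in combined libraries (-0.80 ± 0.15, edgeR adjusted p = 0.0566). Although Fen1 and Lig1 did not pass, their 6 libraries with Stat3 loss all lay below the other 6. Dna2, a flap nuclease and helicase, was at 8.67, 8.73 and 4.72 CPM in Control mice, 6.67, 4.30 and 6.36 under active IKKβ, 4.87, 2.33 and 4.58 after Stat3 loss and 3.50, 3.72 and 1.99 in combined libraries, and its combined libraries lay below Control and active IKKβ while the Stat3 loss libraries overlapped each group (-0.91 ± 0.26, edgeR adjusted p = 0.201).

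Timeless and Tipin encode the complex that steadies stalled forks. Timeless (chromosome 10, 128232065 to 128252941, plus strand) fell by 1.19 ± 0.19 (edgeR adjusted p = 0.0348), from 30.2, 35.9 and 20.6 CPM in Control mice and 27.9, 19.1 and 28.1 under active IKKβ to 16.1, 11.6 and 15.5 after Stat3 loss and 12.5, 9.18 and 7.12 in combined libraries. Tipin did not pass (-0.66 ± 0.15, edgeR adjusted p = 0.119), at 34.9, 37.0 and 19.8 CPM in Control mice, 18.7, 17.8 and 22.1 under active IKKβ, 17, 18.1 and 17 after Stat3 loss and 12, 15.3 and 14.3 in combined libraries. For Timeless the active IKKβ libraries lay in or near the Control range, whereas for Tipin they overlapped the Stat3 loss libraries.

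Repair held the gene with the largest change of the 44. Ung (chromosome 5, 114130386 to 114139323, plus strand) encodes the glycosylase that cuts uracil out of DNA. It was at 29.9, 39.5 and 18 CPM in Control mice and 20.5, 18.8 and 22.5 under active IKKβ, against 9.6, 9.88 and 13.9 after Stat3 loss and 6.21, 7.67 and 4.40 in combined libraries. Its levels did not overlap between the libraries with intact Stat3, those of the Stat3 loss group and those of the combined group. It fell by 1.58 ± 0.20 (edgeR adjusted p = 0.0235), to 33.6% of the level with intact Stat3. Brca1, which acts in break repair, was at -0.77 ± 0.18 (edgeR adjusted p = 0.138). Msh6, a mismatch recognition subunit, was at 69.9, 80.8 and 54.1 CPM in Control mice, 69.5, 62.6 and 69.2 under active IKKβ, 50.3, 59.1 and 62.2 after Stat3 loss and 53.4, 58.7 and 50.9 in combined libraries, and Control overlapped the others (-0.28 ± 0.10, edgeR adjusted p = 0.279).

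Nucleotide supply did not hold a called gene in the averaged comparison, and its 5 genes had a median of -0.35. Rrm2, the small subunit of ribonucleotide reductase, came nearest at -0.83 ± 0.16 (edgeR adjusted p = 0.0717), with 36.8, 40.9 and 26.3 CPM in Control mice, 20.1, 18.2 and 24.2 under active IKKβ, 14.7, 15.6 and 20.2 after Stat3 loss and 17.7, 10.8 and 12.2 in combined libraries. Tk1, the thymidine kinase of the salvage pathway, was farthest at -0.25 ± 0.18 (edgeR adjusted p = 0.621). It was at 48.8, 45.8 and 24.7 CPM in Control mice, 21.0, 14.0 and 15.4 under active IKKβ, 28, 21.3 and 24.9 after Stat3 loss and 22.7, 15.6 and 19.2 in combined libraries, so its lowest group was active IKKβ alone. Thymidylate synthase, Tyms, and the large reductase subunit, Rrm1, were at -0.34 and -0.35, and the dUTPase Dut was at -0.46.

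Chromatin factors of S phase held 3 called genes of 6. Hells (chromosome 19, 38930915 to 38971051, plus strand), a remodelling helicase needed for DNA methylation, had the smallest p of all 14134 genes in this comparison, and Dtl came after it. Hells was at 28.1, 39.5 and 22.6 CPM in Control mice, 27.0, 21.0 and 27.6 under active IKKβ, 10.8, 9.97 and 15.1 after Stat3 loss and 10.5, 8.65 and 8.32 in combined libraries. It fell by 1.4 ± 0.16 (edgeR adjusted p = 0.0218), and its active IKKβ libraries lay within the Control range or just below it. Uhrf1 (chromosome 17, 56303321 to 56323486, plus strand), which brings DNA methyltransferase to newly copied DNA and whose upstream sequence is printed above, was at 72.1, 106 and 51.7 CPM in Control mice, 49.8, 42.7 and 58.7 under active IKKβ, 30.1, 25.5 and 40.0 after Stat3 loss and 25.1, 16.9 and 19.8 in combined libraries (-1.28 ± 0.19, edgeR adjusted p = 0.0281). Slbp (chromosome 5, 33634952 to 33652574, minus strand), which binds the stem loop of histone messages, fell by 0.68 ± 0.11 (edgeR adjusted p = 0.0395), from 33.0, 40.2 and 33.0 CPM in Control mice and 31.9, 29.1 and 29.5 under active IKKβ to 18, 17.4 and 25.1 after Stat3 loss and 23.2, 20 and 18.5 in combined libraries.

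The other chromatin genes did not pass. Chaf1b, a subunit of the histone chaperone CAF-1, was at -1.20 ± 0.24 (edgeR adjusted p = 0.0769), with 29.5, 36.4 and 16.9 CPM in Control mice, 17.4, 11.8 and 17.8 under active IKKβ, 10.9, 7.47 and 14.5 after Stat3 loss and 7.71, 9.52 and 5.34 in combined libraries. Chaf1a, its partner, was at -0.67 ± 0.17, and Ubxn6 on the opposite strand covers 52.5% of its exon length. Dnmt1, the maintenance methyltransferase that UHRF1 recruits, was at 141, 166 and 126 CPM in Control mice, 123, 122 and 147 under active IKKβ, 122, 108 and 118 after Stat3 loss and 108, 84.4 and 123 in combined libraries (-0.31 ± 0.11, edgeR adjusted p = 0.260). Its Stat3 loss and combined libraries lay below Control, and the active IKKβ libraries overlapped Control and the combined group.

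Of 4 genes that control entry into S phase 2 fell, and this role had the lowest median, -1.15. Dtl (chromosome 1, 191537356 to 191575544, minus strand) encodes the receptor by which CRL4 marks CDT1 and p21 for destruction on loaded PCNA. It was at 27.9, 32.8 and 18.6 CPM in Control mice, 20.1, 20.4 and 23.1 under active IKKβ, 12.4, 10.1 and 15.1 after Stat3 loss and 7.46, 8.25 and 6.44 in combined libraries (-1.30 ± 0.15, edgeR adjusted p = 0.0218). Its combined libraries lay below all Stat3 loss libraries, as those of Ung did. E2f1 (chromosome 2, 154559407 to 154569892, minus strand), the transcription factor of S phase genes, was at 26.4, 37.3 and 17.4 CPM in Control mice, 17.8, 13.7 and 17.5 under active IKKβ, 8.92, 9.27 and 11.8 after Stat3 loss and 8.16, 9.87 and 5.91 in combined libraries (-1.23 ± 0.20, edgeR adjusted p = 0.0348). Ccne1, cyclin E1, missed at -1.01 ± 0.19 (edgeR adjusted p = 0.0566). Ccne2, cyclin E2, was at 3.30, 4.49 and 3.01 CPM in Control mice, 3.83, 2.27 and 3.48 under active IKKβ, 1.44, 1.80 and 3 after Stat3 loss and 1.65, 1.28 and 0.837 in combined libraries (-1.07 ± 0.26, edgeR adjusted p = 0.149). Ints8 on the opposite strand covers 17.4% of its exon length.

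Stat3 status was also compared within each IKKβ background, in pairs of groups that share no library. With Stat3 loss against Control edgeR called 0 of the 44 (0 of 14134 genes), 36 were lower at an unadjusted p below 0.05 (3.65% of all genes), and the DESeq2 Wald test called 18 lower (0.446%). All 44 were below 0 (52.7% of all genes) with a median of -0.80, and in 34 the 3 Stat3 loss libraries lay below the 3 Control libraries (6.1% of all genes). The median was -0.96 without Control replicate 3 and -0.66 without Control replicate 2. With the combined group against active IKKβ, where Cre is present on both sides, edgeR again called 0 of 44 (0 of 14134 genes), 24 were lower at an unadjusted p below 0.05 (5.59%), and DESeq2 called 8 (0.552%): Ccne1, Dtl, E2f1, Hells, Rfc1, Timeless, Uhrf1 and Ung. The median was -0.51, 41 were below 0 (52.3% of all genes), and the 3 above 0 were Gins4 at 0.17, Tyms at 0.02 and Tk1 at 0.19. In 26 the 3 combined libraries lay below the 3 active IKKβ libraries (7.54% of all genes).

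Both backgrounds gave the same direction in 41 of 44 genes below 0 (32.3% of all genes), and 23 did not overlap and were lower in both (1.27% of all genes). Hells was at -1.33 ± 0.23 without active IKKβ and -1.46 ± 0.23 with it, Uhrf1 at -1.26 ± 0.26 and -1.29 ± 0.26, Dtl at -1.08 ± 0.22 and -1.52 ± 0.22, and Ung at -1.39 ± 0.29 and -1.76 ± 0.29. Exo1 was at -1.59 ± 0.25 without active IKKβ and -0.91 ± 0.25 with it, and Cdc45 at -1.18 ± 0.22 and -0.58 ± 0.21. The difference of the 2 backgrounds, tested as an interaction, passed in 0 of 44 genes by edgeR (0 of 14134 genes) and 0 by DESeq2 (0.0425% of all genes called lower). At an unadjusted p below 0.05 edgeR gave 3, all with an interaction above 0 (1.92% of all genes): Tyms at 0.74 ± 0.27, Tk1 at 0.87 ± 0.36 and Gins4 at 0.52 ± 0.22. With Stat3 loss these 3 were below 0 without active IKKβ and above 0 with it. The median interaction was 0.27 with 11 of 44 below 0 (50.5% of all genes), and it was 0.50 without Control replicate 3.

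**Figure D3:**
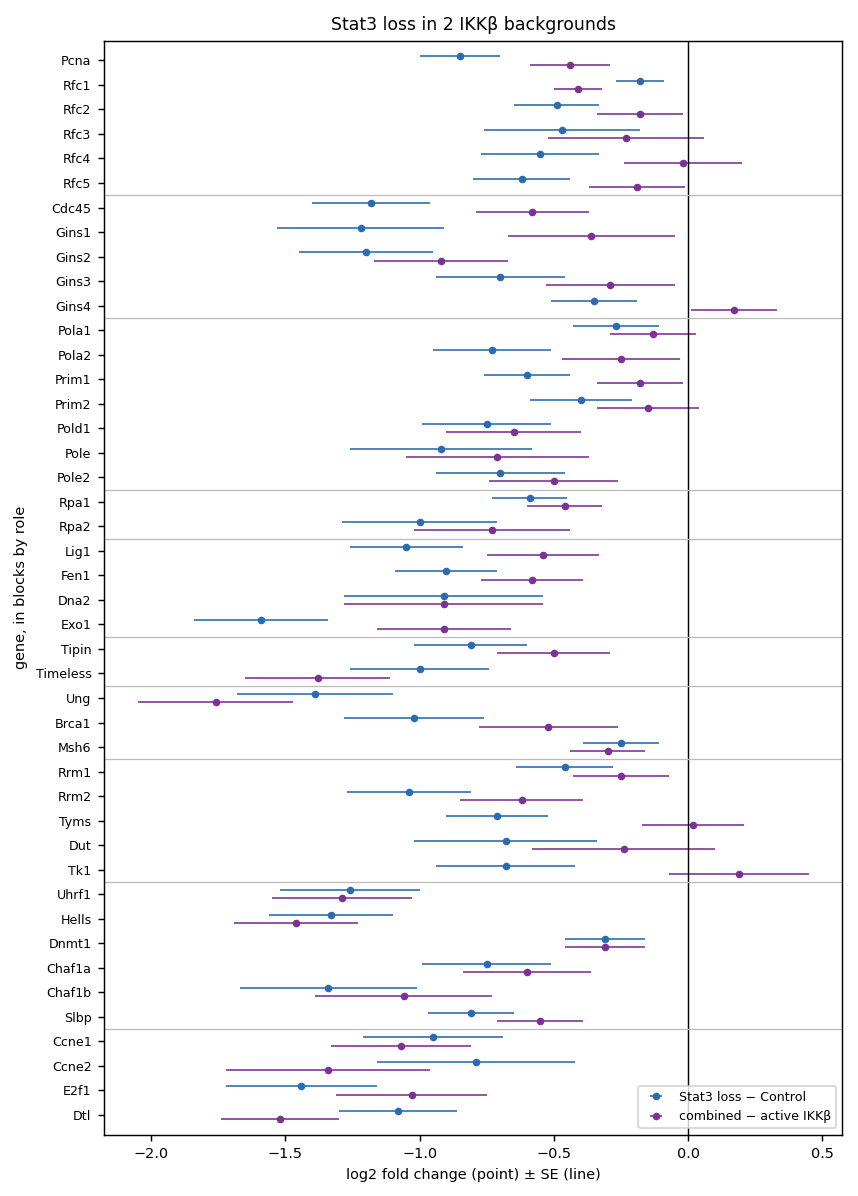
Log2 fold change ± SE (x axis) of each of the 44 genes (y axis, in blocks by role) for Stat3 loss against Control in blue and for the combined group against active IKKβ in purple, n = 3 libraries a group. All blue points and 41 of 44 purple points lie below 0, and the purple points of Gins4, Tyms and Tk1 lie above it.

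In the combined group 18 of the 44 fell below Control (0.318% of all genes called lower) and none rose (0.566% called higher). All 44 were below 0 (49.7% of all genes), and the median was -1.09 beside 0.00 over all genes. Both the groups compared here also enter the averaged comparison, so its calls are not a separate result. The 18 were Pcna, Rfc1, Cdc45 and Gins2 at the clamp and helicase, Rpa1, Lig1, Fen1 and Exo1 of strand binding and end processing, Timeless and Tipin of fork protection, Ung of repair, Rrm2 of nucleotide supply, Uhrf1, Hells, Chaf1b and Slbp of chromatin, and E2f1 and Dtl of G1/S control. Ung stood at 20.9% of its Control level (-2.26 ± 0.30, edgeR adjusted p = 0.0056), Uhrf1 at 26.9% (-1.89 ± 0.27, edgeR adjusted p = 0.0079), Chaf1b at 27.3% (-1.87 ± 0.34, edgeR adjusted p = 0.0298), Dtl at 27.9% (-1.84 ± 0.22, edgeR adjusted p = 0.00456) and E2f1 at 29.6% (-1.76 ± 0.28, edgeR adjusted p = 0.0153). Rfc1 passed with a small change, at 70.0% of Control (-0.51 ± 0.09, edgeR adjusted p = 0.0233). In 25 genes the log2 fold change was -1 or lower, as in 3.64% of all genes, and in 38 the groups did not overlap (7.85% of all genes). At an unadjusted p below 0.05 42 of 44 were lower (5.85% of all genes), all but Gins3 and Rfc4.

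Here too the count moved with single libraries. It was 4 without Control replicate 2 (10 of all genes called lower), 6 without Control replicate 1, and 5, 8 and 10 without combined replicates 3, 1 and 2. It was 28 without Control replicate 3 (88 of all genes called lower), when the median moved to -1.31. In the libraries with low Xist alone it was 0 with a median of -0.97, and with Xist as a term it was 18. In a fit of these 6 libraries alone edgeR called 0 with the same median. Over all 12 libraries the DESeq2 Wald test called 34 (1.7% of all genes called lower). With 1 library left out the edgeR count over all genes ran from 10 to 88 called lower, and it is not given for each fit.

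With active IKKβ alone no gene passed, and the levels lay between Control and Stat3 loss in most. Against Control edgeR called 0 of 44 (0.0566% of all genes called lower and 0.899% higher), 23 were lower at an unadjusted p below 0.05 (6%), and DESeq2 called Rfc2, Tk1 and Tyms (0.842%). All 44 were below 0 (49.3% of all genes) with a median of -0.50, and in 15 the groups did not overlap (8.21% of all genes). Tk1 came nearest the threshold, at 42.4% of Control (-1.24 ± 0.26, edgeR adjusted p = 0.0551), and Tyms followed at 57.4% (-0.80 ± 0.19, edgeR adjusted p = 0.092). Hells, Slbp, Timeless and Ccne1 were at -0.25, -0.23, -0.21 and -0.11. Without Control replicate 3 edgeR called 7 (38 of all genes called lower) and the median was -0.69. Without Control replicate 2 the median was -0.36, and 0 of all genes were called lower.

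Active IKKβ was also compared where Stat3 was already lost. For the combined group against Stat3 loss the median was -0.22, and 37 of 44 were below 0 (47.9% of all genes). EdgeR called 0 (0.0495% of all genes called lower and 0.41% higher), 6 were lower at an unadjusted p below 0.05 (4.54%), DESeq2 called Rfc1 (0.729%), and in 11 the groups did not overlap (6.87%). The 6 were Rfc1, Pola1, Timeless, Ung, Uhrf1 and Dtl, with Ung at -0.87 ± 0.29 and Dtl at -0.76 ± 0.22. In this comparison, with Cre on both sides, Tk1 was at -0.37 ± 0.26 and Pola1 at -0.43 ± 0.16. Averaged over both Stat3 backgrounds, active IKKβ and Cre are partly confounded, because Control libraries carry no Cre. In that average Tk1 (-0.80 ± 0.18, edgeR adjusted p = 0.0417) and Pola1 (-0.49 ± 0.12, edgeR adjusted p = 0.0492) were called lower with active IKKβ. They are 2 of 44, beside 0.594% of all genes called lower and 2.12% higher. The median was -0.39 with 42 below 0 (49.9% of all genes), 25 were lower at an unadjusted p below 0.05 (7.52%), and DESeq2 called 12 (2.3%). The edgeR count of 2 became 12 without Control replicate 3 (150 of all genes called lower), when the median was -0.49. Without Control replicate 2 the median was -0.31. The edgeR count was 0 without Control replicate 1, Control replicate 2, active IKKβ replicate 2, Stat3 loss replicate 1, Stat3 loss replicate 2, combined replicate 1 or combined replicate 3. It was 1 without each of the other 4 libraries in turn.

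**Figure D4:**
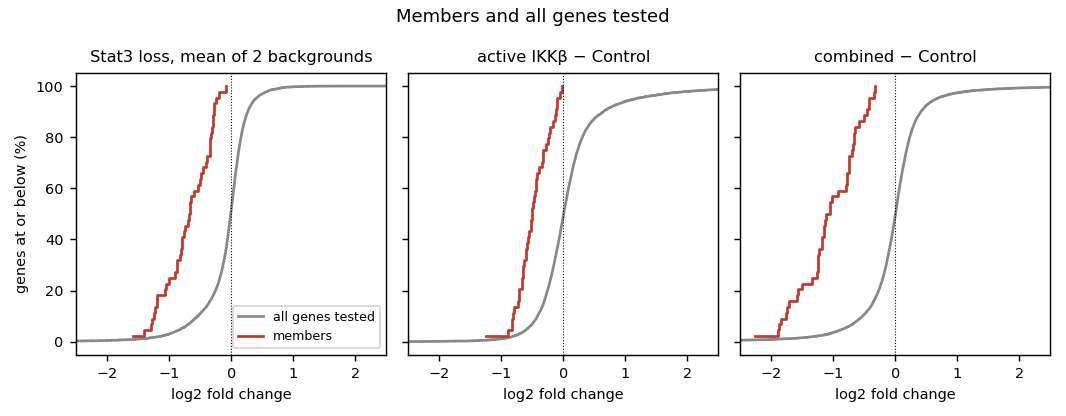
Share of genes (y axis, %) at or below each log2 fold change (x axis) for the 44 genes in red and all 14134 genes tested in grey, for Stat3 loss averaged over both backgrounds, active IKKβ against Control and the combined group against Control. The red curves reach 100% below 0 in each panel, with medians of -0.68, -0.50 and -1.09, while the grey curves cross 50% near 0.

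Other genes of the same pathways had medians nearer to 0. Both lists were chosen with earlier results of these data known, so this difference is not an independent result. Over 86 further tested genes of the fork, repair, nucleotide metabolism, S phase chromatin and G1/S control, the median with Stat3 loss averaged over both backgrounds was -0.18. Of these 65 were below 0 (51.9% of all genes). At an unadjusted p below 0.05 edgeR gave 27 lower (6.81% of all genes) and 5 higher (5.88%). Medians by list were -0.13 in 17 other fork genes, -0.18 in 20 other repair genes, -0.17 in 18 other nucleotide genes, -0.27 in 8 other chromatin genes and -0.22 in 23 other G1/S genes. In the combined group against Control the median was -0.34, 34 of the 86 were lower at an unadjusted p below 0.05 (5.85% of all genes) and none was higher. The heterochromatin protein gene Cbx5 and the fork adaptor gene Wdhd1 were among those that fell there. With Stat3 loss against Control and with the combined group against active IKKβ edgeR called none of the 86. At an unadjusted p below 0.05 24 and 15 were lower (3.65% and 5.59% of all genes).

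Licensing and mitosis, the cell cycle steps before and after DNA synthesis, had medians on opposite sides of 0. Of 18 origin licensing genes, which load and mark the MCM helicase, 7 fell with Stat3 loss averaged over both backgrounds (0.198% of all genes called lower), with a median of -0.85. They were Mcm4, Cdc6, Mcm2, Mcm3 and others of the MCM and ORC families. Of 28 genes of G2 and mitosis edgeR called 0, 23 were higher at an unadjusted p below 0.05 (5.88% of all genes higher), and all 28 were above 0 with a median of 0.57. Within backgrounds the mitotic median was 0.26 for Stat3 loss against Control and 0.84 for the combined group against active IKKβ, where all 28 were higher at an unadjusted p below 0.05 (4.29% of all genes) and in 24 the groups did not overlap (7.12% of all genes higher). With active IKKβ against Control it was -0.62, with all 28 below 0, and with the combined group against Control it was 0.27. The median of the DNA synthesis genes was below 0 against Control in all 3 genotypes, and that of the mitotic genes was below 0 with active IKKβ alone. Whether the lists differ from each other was not tested.

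By library, relative to Control, mitotic medians were -0.25, 0.15 and 0.07 in Control and -0.33, -0.62 and -0.93 under active IKKβ. They were 0.27, 0.59 and -0.12 after Stat3 loss and 0.07, -0.01 and 0.67 in combined libraries. The library highest in mitotic genes was the lowest in DNA synthesis genes in the Stat3 loss and combined groups, the highest in Control and the middle one under active IKKβ. Among genes with a window, the E2F motif was in 8 of 16 licensing genes and 1 of 24 mitotic genes, and TTTGAA in 3 of 16 and 18 of 24.

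**Figure D5:**
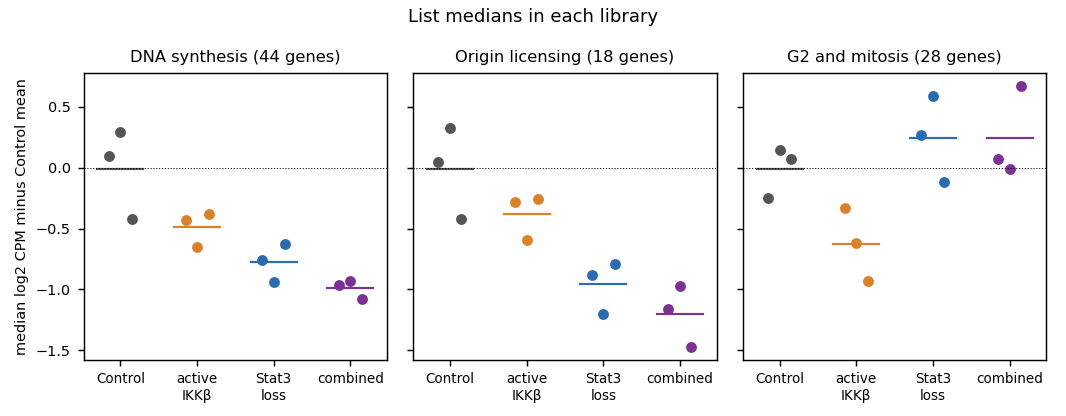
Median log2 CPM relative to the Control mean (y axis) in each library for the 44 DNA synthesis genes, 18 origin licensing genes and 28 genes of G2 and mitosis, with points for libraries and lines for group means (n = 3). The group means of the DNA synthesis and licensing medians are lowest in the combined group, and the mitotic medians are lowest with active IKKβ alone, at -0.93 to -0.33.

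Markers of other cell types were measured in the same libraries. Averaged over both backgrounds, Stat3 loss had a median of -0.99 in 9 tested leukocyte markers, -0.90 in 6 endothelial markers, -1.35 in 6 nerve markers and -5.34 in 6 adipocyte markers, all of them below 0 and none called. Summed leukocyte markers were at 32.3 to 84.4 CPM in Control mice, 117 to 368 under active IKKβ, 47.2 to 80.2 after Stat3 loss and 33.2 to 78.7 in combined libraries, with the lymphocyte markers Cd79a, Cd3e, Cd4, Cd8a and Nkg7 among those at 0 in some libraries. Endothelial markers were at 52.1 to 95.5, 40.1 to 180, 34.9 to 43.1 and 26.4 to 81.0 CPM in the groups in that order, and none was at 0. Nerve markers were at 148 to 347, 137 to 150, 151 to 168 and 112 to 121 CPM, again with none at 0. Adipocyte markers were at 14.6 to 169, 30.7 to 40.9, 9.88 to 15.2 and 11.4 to 20.3 CPM, with the highest value in Control replicate 2 and 6 of the 8 listed at 0 in some library. Markers of smooth muscle and fibroblasts had a median of -0.36 with 8 of 9 below 0, and those of skeletal muscle a median of 0.26 with 3 of 10 below 0. Gastric markers were at 1710 CPM in active IKKβ replicate 1 and 113 CPM in Stat3 loss replicate 3, and Gkn2 was at 0 throughout. Without those 2 libraries the median of the DNA synthesis genes was -0.72 and edgeR called 4 (share of all genes not given here). Basal markers, the compartment where these genes are used, had a median of 0.13 with 8 of 11 above 0 and none called, and suprabasal markers a median of -0.25. Against Control the basal median was 0.31 with Stat3 loss, -0.16 with active IKKβ and -0.23 in the combined group, where 8 of 11 were below 0. For the combined group against active IKKβ it was -0.04, with 7 of 11 below 0. For the combined group against Stat3 loss it was -0.52, with 6 of 11 lower at an unadjusted p below 0.05 (4.54% of all genes). In 6 the combined libraries lay below the Stat3 loss libraries (6.87% of all genes), and the suprabasal median was 0.36 with all 10 above 0. With log2 summed Krt4 and Krt13 as a covariate the median of the DNA synthesis genes was -0.68, and 28 were called (share of all genes not given here). The part of the other cell types in these differences was not tested.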

How the data were processed

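RNA-seq read counts of 12 libraries were analysed. The authors deposited unscaled counts per gene symbol. Cutadapt 1.13, STAR, HTSeq 0.6.1p1 and DESeq2 are named in the submitters' processing notes, with mm10 as the build, and strand use is not given in the sources used here. No library repeated another (lowest chi-square per degree of freedom 26.1 within groups and 33.6 across). Counts were fitted over all 4 groups with edgeR 4.0.16 (limma 3.58.1, R 4.3.3): filterByExpr defaults, TMM factors, robust quasi-likelihood fits, Benjamini-Hochberg over 14134 genes, threshold 0.05. SE is that of the log2 fold change, and log2 levels used a prior count of 2. Precision is set by 3 libraries per group at 14.8 to 30.2 M counts. Code was tested on simulated data.

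The genes and lists were chosen with earlier results of these data known. Library values are given for genes called in a Stat3 comparison and for the smallest and largest adjusted p of each role, and other genes are named only where called, up to 4 a list. Adgre1 and Pclaf, on the lists, were not found in the files. The 24 alternatives covered scaling, filters, DESeq2 1.42.0, robust estimation, group subsets, the replicate number, Krt4 and Krt13, Xist (chosen after seeing the data), and left-out libraries. Overlaps come from GENCODE M21, promoters from RefSeq. Some genes of the other lists are not reported here.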

Additional observations from a re-analysis of the deposited data

How the results depend on the processing

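Directions held: in each of the 28 genes given by library, the log2 fold change for Stat3 loss averaged over both backgrounds and for the combined group against Control did not change sign under any alternative run. For Gins4 in the averaged Stat3 comparison the highest value rounded to 0. Medians of the 44 moved by less than the spread between libraries (SD 0.216), except without Control replicate 3, when they were -1.31 for the combined group against Control (-1.31 to -0.90 with 1 library left out) and 0.50 for the interaction (0.13 to 0.50). Counts of called genes did move, and shares of all genes called stand above for some alternatives only. For Stat3 loss averaged over both backgrounds the count of 11 became 0 with library totals, 4 without both libraries rich in gastric transcripts, 28 with the Krt4 and Krt13 covariate and 28 with DESeq2, and 0 to 18 with 1 library left out. For the combined group against Control 18 became 4 with library totals, 0 when only these groups were fitted, 32 with the covariate and 34 with DESeq2, and 4 to 28 with 1 library left out. For the averaged active IKKβ comparison 2 became 0 with library totals, 1 without a count filter, 1 without robust estimation, 7 with the covariate, 0 without both gastric libraries and 12 with DESeq2, and 0 to 12 with 1 library left out. For active IKKβ against Control 0 became 1 without a count filter (0.0566% of all genes called lower in the main analysis), 4 with the covariate, 3 with DESeq2 and 0 to 7 with 1 library left out. For Stat3 loss against Control 0 became 18 with DESeq2 and 0 to 1 with 1 library left out, the 1 being Lig1 without Control replicate 3. For the combined group 0 became 3 with the covariate and 8 with DESeq2 against active IKKβ, and 1 with DESeq2 against Stat3 loss. With Xist as a term, chosen after seeing the data, the counts were 6 for Stat3 loss averaged over both backgrounds, 1 for active IKKβ against Control and 1 for its average. In the libraries with low Xist alone they were 0 for the averaged Stat3 comparison, 0 for the combined group against Control and 0 for the averaged active IKKβ comparison. The causes were not tested.

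With the replicate number as a block the counts of called genes were 0 for Stat3 loss averaged over both backgrounds, 13 for the combined group against Control, 1 for active IKKβ against Control and 1 for its average, and 0 elsewhere, with medians of -0.69 and -1.07 in the first pair. Same-numbered libraries had correlated deviations over 0.1 in 9 of 18 pairs (range -0.41 to 0.45), and 8 of 12 libraries correlated best with their own number. The labels give the number no meaning, while Xist was high in replicate 1 of every group, so whether the number marks more than that was not tested.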
